A study of Mus musculus with 8 samples.

Results

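The glucocorticoid receptor gene Nr3c1 and 7 genes long known as its targets (Fkbp5, Tsc22d3, Sgk1, Dusp1, Klf9, Klf15 and Errfi1) were followed in lactating mouse mammary glands with and without the transcription factor Th-POK. The genes were chosen by symbol. They are 8 of the 18749 genes that the arrays could be matched to, and their 16 probes were all well above background on all 8 arrays. RNA came from whole No. 4 glands of female C57/Bl6 dams on lactation day 1, with 4 wild-type (WT) dams and 4 Th-POK-deficient (KO) dams, 1 dam per array. The methods name no tissue-specific driver for the deletion, so every cell type of the gland may lack the factor, and the dams are described as age matched.

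Glucocorticoid hormone enters cells by diffusion and binds the receptor encoded by Nr3c1, which is held ready in the cytoplasm by HSP90 and its co-chaperones. The bound receptor moves to the nucleus, binds DNA as a dimer, and raises or lowers transcription. In the mammary gland, glucocorticoid acts with prolactin and insulin as one of the lactogenic hormones, and the receptor can bind STAT5 at milk protein genes. Many of its targets encode proteins that hold a response back: FKBP5 lowers the receptor's affinity for hormone, and GILZ (the Tsc22d3 product) and DUSP1 restrain inflammatory signalling.

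The receptor's binding element is an inverted repeat of a short core, and the stretch around the start site of each target was searched for it. RefSeq (GRCm38.p6) windows of 300 bases, from 250 before to 50 after an annotated start, were at hand for all 7 targets (15 windows, since some genes have several starts). The core AGAACA, on either strand, was in 4 windows of 2 targets, Sgk1 and Tsc22d3, and in 19.0% of 32851 windows of all genes. Counted by gene, 21.3% of 27025 genes had it in at least 1 window. The looser inverted repeat GNACANNNTGTNC was in 1 target, Sgk1, and in 0.475% of all windows or 0.537% of all genes. The matches below are shown because Sgk1 was the member that differed most between the genotypes. Capitals mark the inverted repeat in the first line and the core in the others, and the first capital lies 188, 195, 13 and 185 bases before its start in turn.
Sgk1 inverted repeat, chr10:21993694-21993722, plus strand: tgcggaaaGAACAGAATGTTCtcggagat
Sgk1 core, chr10:21881979-21882004, plus strand: gggaatccgtTGTTCTgtgttttctg
Sgk1 core, chr10:21992200-21992225, plus strand: agtgggactcAGAACAgaaaggcaat
Tsc22d3 core, chrX:140600692-140600717, minus strand: gcattcgacaTGTTCTaagttctgag
The inverted repeat of Sgk1 overlaps a core on each strand. Another core in the same window, 242 bases before the start, is not shown. These are matches of letters in a window, not sites shown to be bound.

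Levels are given as log2 signal, the log2 of each probe's scanner intensity after quantile normalization across the arrays. A difference is KO minus WT on that scale, and a gene is called where limma's test over all 14137 genes gave a Benjamini-Hochberg adjusted p under 0.05. Spots well above background made up between 67.3% and 75.6% of each WT array and between 67.1% and 71.3% of each KO array. The number of arrays limits the precision. Over all genes, 2331 were called, and leaving out any 1 array moved that count to between 515 (without KO3) and 3070 (without WT1). Each genotype was hybridised on a slide of its own, so slide and genotype cannot be told apart in any value below. Zbtb7b, which encodes Th-POK, lay between 9.90 and 10.42 on the WT arrays and was not well above background on any KO array. It was at least 81.5-fold lower in KO glands (adjusted p = 5.71e-09), a bound set against the dimmest probe well above background on each KO array. Milk genes, which secretory epithelium expresses, were at high levels in both genotypes. Csn2, a casein, stood at 17.76 ± 0.05 in WT and 17.77 ± 0.07 in KO glands. Wap, the whey acidic protein, stood at 18.39 ± 0.06 and 18.47 ± 0.02 (SD, n = 4 each, both chosen after their values were seen). Quantile normalization gives spots of equal rank the same value on every array. At the top of the scale this leaves little room for a difference, so these values do not show equal milk gene levels.

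Sgk1 fell in the KO glands, and no other member passed the test. Of the 8 members, 1 was called lower and 0 higher, where 8.96% of all genes tested were called lower, 7.53% higher and 16.5% in either direction. Nr3c1 itself and Klf15 lay lower in every same-numbered pair of arrays without passing. The remaining targets were split in direction, with Fkbp5 and Errfi1 higher and Tsc22d3, Dusp1 and Klf9 lower by their means. The median difference of the members was -0.19, against -0.02 over all genes tested, but it ran from -0.44 without KO2 to -0.03 without KO3. In whole-gland RNA, fewer cells of a type and less RNA per cell cannot be told apart.

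**Figure D1:**
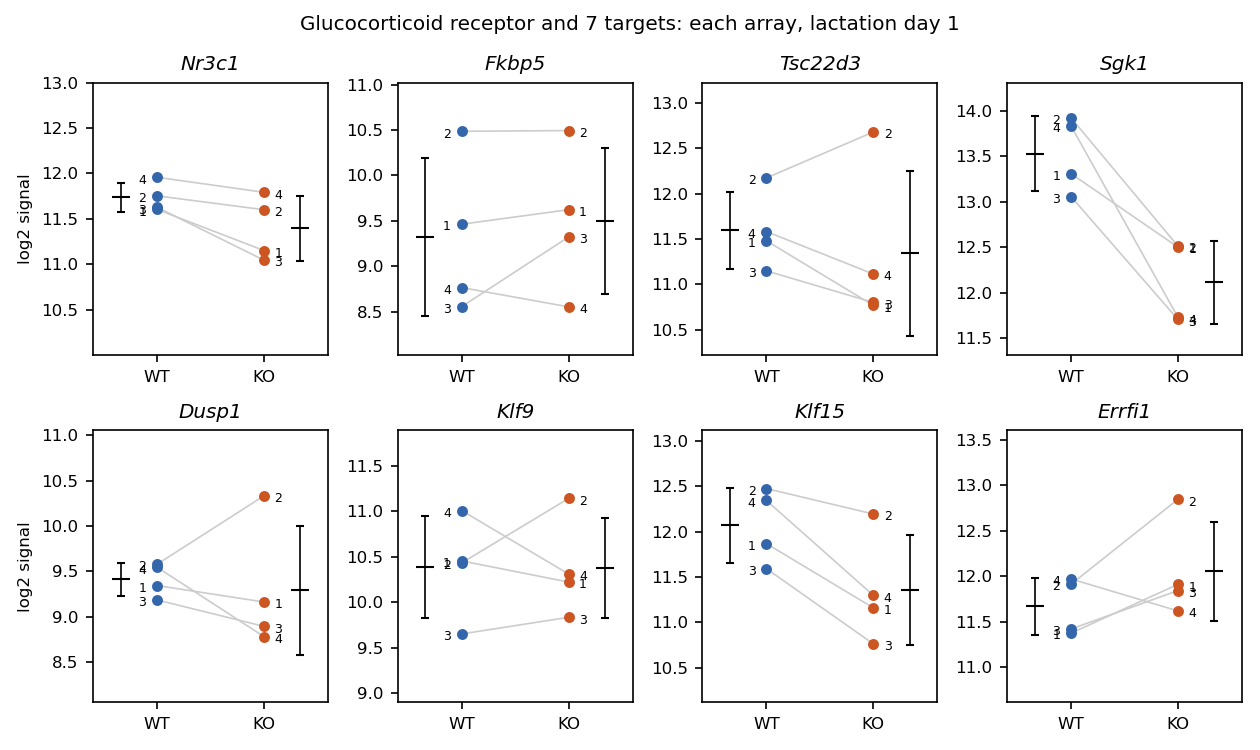
Log2 signal of the brightest probe of each member on every array, WT (4 arrays) and KO (4 arrays), with the mean as a dash and the SD as a bar beside them; digits are replicate numbers and grey lines join equal numbers. Sgk1 alone has KO arrays, from 11.71 to 12.51, that all lie below the WT arrays, from 13.06 to 13.92.

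Nr3c1 encodes the receptor. Its brightest probe read 11.60, 11.75, 11.63 and 11.96 on WT1 to WT4 and 11.15, 11.60, 11.04 and 11.79 on KO1 to KO4. The genotypes overlapped through KO4 alone, since KO2 lay just under the lowest WT array. The means were 11.74 ± 0.16 and 11.40 ± 0.36 (SD, n = 4 each), a difference of -0.34 (SE 0.18, 95% interval -0.75 to 0.08, adjusted p = 0.214). The gene had 4 probes, and each of them read lower in KO glands, by -0.44 to -0.34, with adjusted p from 0.137 to 0.219 in a fit of all probes. The receptor's own transcript thus did not pass the test, which does not show that its level was equal. Over 16 alternative ways of processing the arrays, leaving out each array among them, its difference stayed below 0 and its adjusted p ran from 0.0863 to 0.444.

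Sgk1 encodes a kinase that acts downstream of PI3K and raises sodium channel and transporter activity. Its level was 13.31, 13.92, 13.06 and 13.83 on the WT arrays and 12.50, 12.51, 11.71 and 11.73 on the KO arrays. No KO array reached the lowest WT array, and 0.54 lay between them. Among all genes, 24.1% had genotypes that did not overlap, and 12.9% had all KO arrays below all WT arrays. Sgk1 fell by 1.42 on the log2 scale (SE 0.27, 95% interval -2.04 to -0.80, adjusted p = 0.0171), which is 2.67-fold (1.74 to 4.10). The same-numbered arrays differed by -0.81, -1.41, -1.35 and -2.10. Its call held in 15 of 16 alternatives and was lost without KO3 (-1.28, adjusted p = 0.0526). Its probe is the only one for this gene on the array, so no other probe bears on the value.

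Klf15 encodes a Krüppel-like factor that controls amino acid breakdown and gluconeogenic genes in fasting tissues. The WT arrays read 11.87, 12.47, 11.59 and 12.34, and the KO arrays 11.16, 12.19, 10.76 and 11.30. KO1, KO3 and KO4 lay below all WT arrays and KO2 lay among them. The difference was -0.71 (SE 0.32, 95% interval -1.44 to 0.01, adjusted p = 0.141). A weaker second probe differed by -0.77 (adjusted p = 0.0895). With the replicate number as a block, which compares WT1 with KO1 and so on, the adjusted p of the brightest probe was 0.0305 and Klf15 was called. The pairs differed by -0.71, -0.28, -0.83 and -1.04. Klf15 was therefore called under the paired model alone of 16 alternatives, over which its adjusted p ran from 0.0305 to 0.306.

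Klf9 encodes a related factor that hormone induces rapidly in many tissues. Its WT arrays read 10.45, 10.43, 9.65 and 11.01, and its KO arrays 10.22, 11.14, 9.83 and 10.31. The ranges lay almost on top of each other. The means were 10.39 ± 0.56 and 10.38 ± 0.55 (SD, n = 4 each), and the difference of -0.01 had a 95% interval from -0.78 to 0.76 (adjusted p = 0.987). Its other probe differed by -0.44 (adjusted p = 0.319). The sign of the brightest probe's difference turned when WT1, WT2, WT4, KO1, KO3 or KO4 was left out, with values from 0.0059 to 0.20, so no direction can be given for Klf9.

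**Figure D2:**
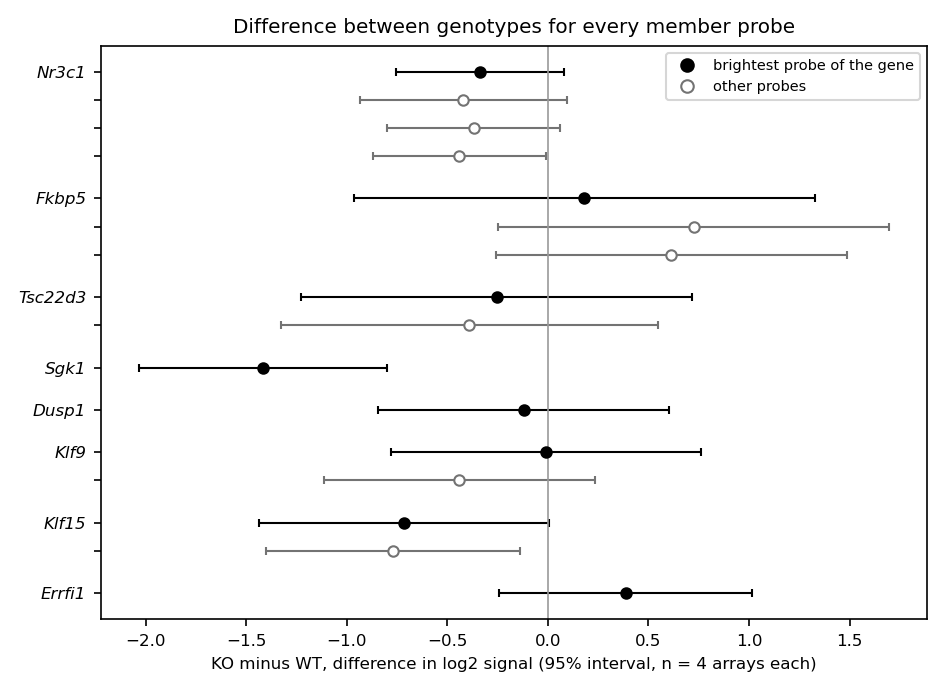
Difference in log2 signal, KO minus WT, for all 16 member probes, with 95% intervals (n = 4 arrays each); filled points are the brightest probe of a gene and open points its other probes. The interval of Sgk1, from -2.04 to -0.80, lies far from 0, all 4 Nr3c1 probes lie below 0 and all 3 Fkbp5 probes above it.

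Fkbp5 encodes the co-chaperone that dampens the receptor and is among its most responsive targets. The WT arrays read 9.46, 10.49, 8.56 and 8.77, and the KO arrays 9.62, 10.49, 9.32 and 8.55. Each genotype spanned almost the same wide range. The difference was 0.18 (SE 0.50, 95% interval -0.97 to 1.33, adjusted p = 0.820), and it turned to -0.07, -0.0035 and -0.15 without WT3, WT4 and KO2. The other 2 probes differed by 0.72 and 0.61 (adjusted p = 0.259 and 0.285), larger than the brightest one. All 3 probes were thus higher by their means, and none was called.

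Tsc22d3 encodes GILZ, the glucocorticoid-induced leucine zipper, which binds and restrains NF-kB and AP-1. It read 11.48, 12.17, 11.15 and 11.58 on the WT arrays and 10.77, 12.68, 10.80 and 11.12 on the KO arrays. KO2 lay above all WT arrays, and the other KO arrays lay below all of them. The difference was -0.26 (SE 0.43, 95% interval -1.23 to 0.72, adjusted p = 0.697), and its second probe gave -0.39 (adjusted p = 0.531). Without KO2 the brightest probe differed by -0.70 (adjusted p = 0.102).

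Dusp1 encodes a phosphatase that switches off p38 and JNK. Its WT arrays read 9.34, 9.58, 9.19 and 9.55, and its KO arrays 9.16, 10.33, 8.90 and 8.78. As for Tsc22d3, KO2 lay above every WT array and the other KO arrays lay below every one. The difference was -0.12 (SE 0.32, 95% interval -0.85 to 0.60, adjusted p = 0.810). It was -0.47 without KO2 (adjusted p = 0.0906), and turned to 0.01 without KO3 and 0.05 without KO4.

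Errfi1 encodes MIG6, an inhibitor that binds the kinase domain of the EGF receptor family. It read 11.37, 11.91, 11.42 and 11.97 on the WT arrays and 11.91, 12.85, 11.84 and 11.62 on the KO arrays. The genotypes overlapped, with KO2 alone above all WT arrays. The difference was 0.39 (SE 0.28, 95% interval -0.24 to 1.01, adjusted p = 0.342), and 0.12 without KO2 (adjusted p = 0.694).

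The targets varied more from dam to dam than most genes did. The residual SD within genotypes, for which the median of all genes was 0.23, was 0.84 for Fkbp5, 0.71 for Tsc22d3, 0.55 for Klf9, 0.52 for Dusp1 and for Klf15, and 0.44 for Sgk1 and for Errfi1. Of all genes, 96.9% had a smaller residual SD than Fkbp5 and 83.5% a smaller one than Sgk1. Nr3c1, at 0.28, stood nearer the middle, with 62.4% of genes below it. KO2 was the highest KO array for 7 of 7 targets, where it was the highest KO array for 21.2% of all genes. Among the WT arrays, WT2 was the highest for 5 of 7 targets (26.4% of all genes) and WT3 the lowest for 6 of 7 (16.5% of all genes). So the targets tended to be high or low on the same arrays within each genotype, which is a description of 8 arrays with no test. For Sgk1 this was nearly a tie, with 12.51 on KO2 and 12.50 on KO1, and both lay below every WT array. KO2 did not hold the highest KO value of Nr3c1, which was on KO4.

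**Figure D3:**
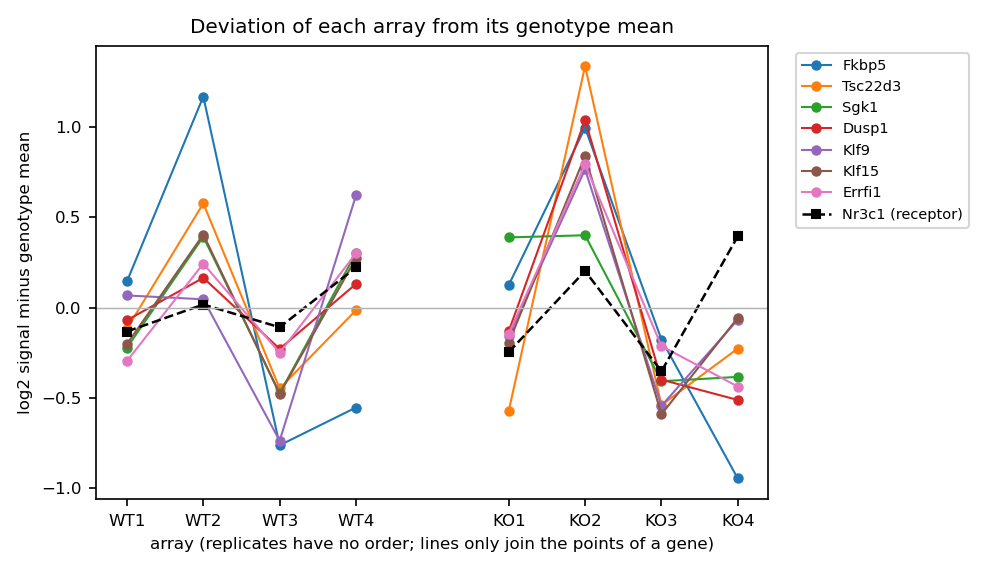
Log2 signal of each member on each array minus the mean of its genotype; coloured lines are the 7 targets and the dashed black line is Nr3c1. KO2 is the top KO array for all 7 targets, nearly tied with KO1 for Sgk1, and WT3 is the lowest WT array for 6 of them.

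The receptor's chaperones were next. All 15 listed genes were tested, of which 10 were lower and 5 higher by their means, with 2 called lower and 0 higher, where 8.96% of all genes were called lower. Stip1, the HOP adaptor that passes the receptor from HSP70 to HSP90, ranged from 10.75 to 11.24 among WT dams and from 10.27 to 10.49 among KO dams, and fell by 0.61 (SE 0.15, adjusted p = 0.0287). Ahsa1, which activates the HSP90 ATPase, fell from 14.10 ± 0.11 to 13.75 ± 0.08 (SD, n = 4 each), by 0.35 (SE 0.10, adjusted p = 0.0429). Both had all KO arrays below all WT arrays. The list's median difference was -0.18 against -0.02 over all genes. Fkbp4, the co-chaperone that takes the place of FKBP5 when hormone binds, was picked after its values were seen: it differed by -0.51 with no overlap and missed the threshold (adjusted p = 0.0526). The call of Stip1 was lost without WT2, WT3, KO1, KO2 or KO3 (adjusted p up to 0.0751), and that of Ahsa1 without any array but WT4 (up to 0.107).

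Other steroid receptors and genes that set the supply of hormone to the receptor gave no call in the unpaired fit. Of 11 listed genes, 8 were tested, and Pgr, Hsd11b2 (the enzyme that inactivates cortisol and corticosterone) and Serpina6 (the hormone's carrier in blood) were not well above background on all 4 arrays of either genotype. By limma 0 of 8 were called, where 16.5% of all genes were called in either direction. An unadjusted p under 0.05 was found for 3, and the methods' t-test with Benjamini-Hochberg adjustment called 1. With the replicate block 1 was called lower, Srd5a1, a steroid 5-alpha-reductase (-0.42, adjusted p = 0.0433), named after its values were seen. Without WT1, Abcb1a was called higher and Nr3c2 lower, and without KO4, H6pd higher. The smallest p-values belonged to Abcb1a and Abcb1b, drug efflux pumps that also carry glucocorticoid out of cells. Abcb1a differed by 0.72 (SE 0.22, adjusted p = 0.0552) and Abcb1b by 0.29 (SE 0.09, adjusted p = 0.0604), with all KO arrays above all WT arrays for each. Among 16 coregulators, 1 was called higher and 0 lower, where 7.53% and 8.96% of all genes were. Ppargc1a, the coactivator PGC-1alpha, rose from 7.17 ± 0.68 to 8.42 ± 0.47 (SD, n = 4 each), by 1.26 (SE 0.36, adjusted p = 0.0453). Its call was lost without any array but WT4 (adjusted p up to 0.109). The coregulators' median difference was 0.02, and -0.03 to 0.06 with 1 array left out.

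A wider list of genes that glucocorticoid induces in other tissues gave calls in both directions. Of its 33 genes, 30 were on the array and 27 tested. Of these, 2 were called higher and 2 lower, close to the shares of all genes (7.53% and 8.96%). The median difference was 0.27 (0.17 without KO2 and 0.45 without KO4). Cebpd, a transcription factor of the C/EBP family, rose from 13.66 ± 0.31 to 14.97 ± 0.38 (SD, n = 4 each), by 1.32 (SE 0.22, adjusted p = 0.0122). Anxa1, the anti-inflammatory annexin A1, rose by 1.05 (SE 0.25, adjusted p = 0.0299). Lpin1, a phosphatidate phosphatase of triglyceride synthesis, fell by 1.18 (SE 0.34, adjusted p = 0.0483), and Hif3a, a hypoxia-inducible factor subunit, fell by 0.60 (SE 0.12, adjusted p = 0.0175). The KO arrays of Cebpd, from 14.63 to 15.51, and of Hif3a, from 6.50 to 6.74, did not overlap the WT arrays, from 13.33 to 14.06 and from 7.06 to 7.42. Cebpd was called in 16 of 16 alternatives and Hif3a in 15, the exception being without KO3 (adjusted p = 0.0572). Anxa1 lost its call without WT2, WT3, WT4, KO1, KO2 or KO3 (adjusted p up to 0.0843), and Lpin1 without any array but KO2 (up to 0.126). Lpin1 was also not called with the mean of its probes, with no filter on dim probes or by the methods' t-test. With the replicate block, 4 genes of the list were called higher and 3 lower.

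Of the genes that glucocorticoid represses elsewhere, 16 were on the array and 11 were tested, with 3 called higher and 0 lower (7.53% and 8.96% of all genes). By their means the 11 were split, 6 higher and 5 lower. With the replicate block 3 were called higher and 1 lower, the interleukin gene Il1b (-0.67, adjusted p = 0.0492, named after its values were seen), which was also called lower without KO4. Their median difference of 0.31 ran from 0.05 without KO2 to 0.38 without WT2, and was -0.01 with no filter on dim probes. Cxcl1, a neutrophil-attracting chemokine, read 6.69, 6.57, 6.40 and 7.64 on the WT arrays and 8.92, 9.12, 9.27 and 8.95 on the KO arrays, with no overlap. It rose by 2.24 (SE 0.26, adjusted p = 0.00417), or 4.73-fold, and was called in 16 of 16 alternatives. Icam1, the leukocyte adhesion molecule, rose by 0.94 (SE 0.23, adjusted p = 0.0307), and lost its call without WT2, WT3, WT4, KO1 or KO3 (up to 0.0862). Pomc, the precursor of ACTH, rose by 0.37 from a low level of 5.74 ± 0.05 (SE 0.09, adjusted p = 0.0296), and was not called without WT2, WT3, KO1, KO2, KO3 or KO4 (up to 0.0841). Pomc was also not called with normexp background correction, trended and robust eBayes or the replicate block (adjusted p up to 0.159 over the 16 alternatives). Il6, Ptgs2, Nos2, Cxcl2 and Csf2 were not well above background on all 4 arrays of either genotype. The summed signal of neutrophil markers ran from 1615 to 7584 on the WT arrays and from 7733 to 18750 on the KO arrays. Of 5 tested, 2 (Camp and Ngp) were called higher, where 7.53% of all genes were. Both were well above background on 4 KO arrays and 0 WT arrays, so they entered the test through the KO arrays alone. The brighter S100a9 and S100a8 were not called (adjusted p = 0.0566 and 0.357). Elane was not well above background on any array. The part of such cells in the higher Cxcl1 and Icam1 was not tested.

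**Figure D4:**
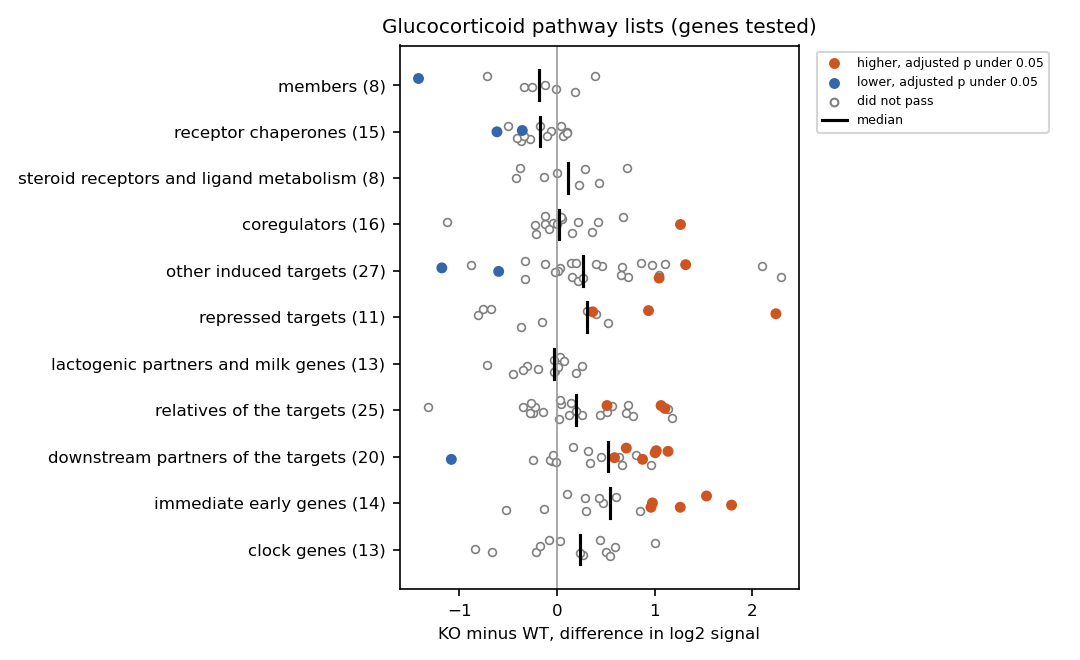
Difference in log2 signal, KO minus WT, of every gene tested in each glucocorticoid pathway list, with the number tested in brackets; filled points passed an adjusted p under 0.05 and the black mark is the list's median. The 3 called repressed targets all lie above 0, while the 11 tested are split, 6 above it and 5 below. The 2 called chaperones lie below 0.

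The partners through which glucocorticoid acts on lactation, and the milk genes, gave no call in the unpaired fit. By limma 0 of 13 were called, where 16.5% of all genes were called in either direction. An unadjusted p under 0.05 was found for 2, and the methods' t-test called 0. Stat5a, the prolactin-activated factor that the receptor binds, differed by -0.72 (SE 0.23, adjusted p = 0.0632), with 12.31, 12.61, 12.43 and 12.50 on the WT arrays and 11.11, 11.99, 11.61 and 12.26 on the KO arrays. All KO arrays of Stat5a lay below all WT arrays, and with the replicate block it was called (adjusted p = 0.0404), as it was without KO4. The block also called the milk protein gene Lalba lower (-0.45, adjusted p = 0.0444, named after its values were seen). Elf5, a factor that specifies secretory alveolar cells, differed by -0.35 (SE 0.14, adjusted p = 0.107), and was called with scaling to the 75th percentile and without KO2. The list's median was -0.03, and -0.10 to 0.03 with 1 array left out. For the brightest milk genes, whose values quantile normalization largely sets, the lack of a call does not show equal levels.

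Relatives of the targets, other TSC22, DUSP, KLF and SGK genes, were mostly higher in KO glands by their means. Of 25 tested, 18 were higher and 7 lower, 3 were called higher and 0 lower by limma (7.53% and 8.96% of all genes), and the methods' t-test called 0. With the replicate block 4 were called higher and 1 lower, Sgk2 (adjusted p = 0.0169, named after its values were seen). Tsc22d1 rose by 1.11 (SE 0.27, adjusted p = 0.0299), Tsc22d4 by 0.51 (SE 0.14, adjusted p = 0.0387) and Dusp16, a JNK phosphatase, by 1.07 (SE 0.31, adjusted p = 0.0495). Tsc22d1 and Tsc22d4 belong to the same leucine zipper family as Tsc22d3. Each call depended on single arrays: Tsc22d1 lost it without WT2, WT3, KO1, KO2 or KO3 (adjusted p up to 0.0845), Tsc22d4 without these or WT4 (up to 0.103), and Dusp16 without any array but KO4 (up to 0.127). Tsc22d4 was also not called with the mean of its probes or with no filter on dim probes (adjusted p up to 0.277 over the 16 alternatives). Dusp16 was called in 2 of 16 alternatives.

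Among genes on which the targets' proteins act, 6 of 20 tested were called higher and 1 lower, where 7.53% and 8.96% of all genes were. Their median difference was 0.52. For SGK1, Nedd4l, the ubiquitin ligase that it phosphorylates and so holds off the sodium channel, rose from 8.42 ± 0.34 to 9.56 ± 0.13 (SD, n = 4 each), by 1.14 (SE 0.17, adjusted p = 0.00969). For GILZ, Rela, the NF-kB subunit p65, rose by 0.71 (SE 0.13, adjusted p = 0.0143). For MIG6, Erbb2, a receptor of the EGF receptor family, rose by 0.88 (SE 0.17, adjusted p = 0.0171). For KLF15, Bcat2, a branched-chain amino acid transaminase whose transcription it drives, fell by 1.08 (SE 0.21, adjusted p = 0.0176). All 4 had genotypes that did not overlap, as had 24.1% of all genes, and they were picked for the smallest p of the list. Nedd4l and Rela were called in 16 of 16 alternatives, and Erbb2 and Bcat2 in 15, the exception being without KO3 (adjusted p = 0.0542 and 0.0554). Named after their values were seen, the other genes called higher were Egfr (0.59, adjusted p = 0.0196), Ndrg2, a substrate of SGK1 (1.02, adjusted p = 0.0247), and Scnn1a, a sodium channel subunit (1.01, adjusted p = 0.0466). Egfr and Ndrg2 lost their calls without KO2 or KO3 (adjusted p up to 0.0618 and 0.0721), and Scnn1a without WT2, WT3, WT4, KO1, KO2 or KO3 (up to 0.115). The count called higher was 3 without KO2, 2 without KO3 and from 5 to 7 without any other array. Of SGK1, GILZ, MIG6 and KLF15, only SGK1 had its own gene called in the unpaired fit. Whether a target's level bears on the transcripts of its partners was not tested.

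Immediate early genes, which MAP kinase signalling switches on and which DUSP1 and GILZ hold back, were tested for 14 genes. Of these, 5 were called higher and 0 lower, where 7.53% and 8.96% of all genes were, with a median difference of 0.54, and the methods' t-test called 0. Junb, an AP-1 subunit, rose by 1.53 (SE 0.32, adjusted p = 0.0216), with 13.11, 11.62, 12.10 and 12.22 on the WT arrays and 14.26, 13.99, 13.59 and 13.33 on the KO arrays. Ier3 rose by 1.79 (SE 0.46, adjusted p = 0.0351), Jun by 1.26 (SE 0.33, adjusted p = 0.0374) and Egr1 by 0.96 (SE 0.27, adjusted p = 0.0435), each with no overlap between genotypes. The fifth, Btg2, was named after its values were seen and rose by 0.98 (adjusted p = 0.0484). Junb, Ier3 and Jun lost their calls without WT2, WT3, KO1, KO2 or KO3 (adjusted p up to 0.0579, 0.0915 and 0.0982), and Egr1 without WT1, WT2, WT3, WT4, KO2 or KO3 (up to 0.106). Btg2 kept its call only without WT4 (up to 0.118 otherwise). None of the list was called without WT2, WT3, KO2 or KO3, and 3 were called with the replicate block.

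Markers of cell types in the gland also differed between the genotypes, and their part in the values above was not tested. Over all genes, 7.53% were called higher and 8.96% lower. The summed signal of 8 luminal epithelial markers ran from 139375 to 206634 on the WT arrays and from 231446 to 276937 on the KO arrays, with 5 called higher (Cdh1, Cldn3, Elf3, Epcam and Krt18). That of 8 adipocyte markers ran from 284369 to 401246 and from 402571 to 563485, with Cfd and Plin1 called higher, and that of 6 fibroblast markers from 174139 to 219673 and from 214877 to 319072, with Dcn called higher. Basal epithelial markers overlapped, from 68856 to 101466 and from 63454 to 95758, with Krt17 called lower. T cell markers ran from 586 to 1560 and from 628 to 824, with Cd3e and Cd4 called lower, and B cell markers from 376 to 546 and from 547 to 956, with Cd79b called higher and Pax5 at background on all arrays. Among macrophage markers (15486 to 77999 and 29086 to 122488) and endothelial markers (9977 to 10561 and 8369 to 10905), limma called 0 and found 0 and 1 genes at an unadjusted p under 0.05.

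By profile over the 8 arrays, the genes nearest to Nr3c1 after each gene was centred on its own mean were Pitpna, Nt5c2 and Notch4, at root mean square differences of 0.0936, 0.101 and 0.104 in log2 signal among 14136 other genes. The nearest to Sgk1 were Grm5, Got1 and St8sia2, at 0.205, 0.211 and 0.223. Got1, the cytosolic aspartate transaminase, fell by 1.14, Grm5 by 1.36 and St8sia2 by 1.22. Genes picked for nearness to Sgk1 on these same arrays must fall much as Sgk1 did, so their falls are no separate result. The measure says nothing of shared function or control.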

How the data were processed

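RNA of 4 WT and 4 Th-POK KO glands was measured on 8 one-colour Agilent arrays. The scanner intensities that the authors deposited had been background-subtracted by Agilent Feature Extraction (10.7 by the submitters' processing notes). A second file that the authors deposited holds log2 values, quantile-normalized in GeneSpring by their methods. Each of its columns had a median of 6.32, and it was used as an alternative. The array design names another mouse build than the gene table (GRCm38.p6), so no coordinates of probes are given.

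Processed intensities of non-control spots were quantile-normalized on the log2 scale with limma 3.58.1 in R 4.3.3. Outlier spots, as marked by the scanner software (64 to 100 per array), were left out, and the remaining spots of a probe were averaged, giving 41174 probes. Of these, 27479 matched 18749 symbols by accession (26728 of 27094 with an NM accession). A probe counted as well above background on an array where most or an equal share of its spots were so marked. It was kept where that held throughout 1 genotype or both, 4 arrays each (27735 probes), and the brightest kept probe stood for its gene (14137 genes). KO was compared with WT by lmFit and eBayes with Benjamini-Hochberg adjustment, tested on simulated data first. Each array is 1 dam, so p-values rest on the spread between dams.

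The text names all 8 members with every probe, Zbtb7b, from each pathway list up to 4 called genes of smallest p (2 where none was called), and the 3 nearest profiles to Nr3c1 and to the member of smallest p. The members and the gene lists were chosen with earlier results of these data known. Alternatives were normexp background correction (offset 50, on median signals, as the files hold no mean signal), scaling to the 75th percentile, no filter, the authors' table, the mean of probes, the methods' t-test, trended and robust eBayes, the replicate block, and leaving out each array. The methods speak of independent sets of replicates. Deviations of same-numbered WT and KO arrays from their genotype means correlated at 0.165 to 0.304 across genes, above the limit of 0.1 set for treating numbers as pairs. Differently numbered arrays correlated at -0.323 to 0.340, and 2 of 4 WT arrays correlated best with their own number, so the pairing rests on a weak basis. Python 3.11.15, pandas 2.3.3 and matplotlib 3.10.9 made tables and plots.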

Additional observations from a re-analysis of the deposited data

How the results depend on the processing

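Of 200 values recomputed under an alternative, 159 kept their direction and side of the threshold, or moved by less than 1.5 times for a count. Members called were 2 with the replicate block (Klf15 joined Sgk1) and 0 to 1 with 1 array left out, none being called without KO3. Chaperones called were 4 with normexp, 1 without the filter, 1 by the methods' t-test and 0 to 4 with 1 array left out. Coregulators called were 0 without the filter, with the mean of probes and by the t-test, 3 with trended and robust eBayes, 2 with the block, and 0 to 1 with 1 array left out. Of the other induced targets, 2 were called by the t-test, 7 with the block and 1 to 5 with 1 array left out. Differences that turned sign were those of Fkbp5 (-0.15 to 0.57 with 1 array left out, below 0 without WT3, WT4 or KO2), Dusp1 (-0.47 to 0.0498, above 0 without KO3 or KO4) and Klf9 (0.00062 with normexp, and -0.26 to 0.20 with 1 array left out, above 0 for 6 of the 8), none of them called. Sgk1 was called in 15 of 16 alternatives, with differences from -1.58 to -1.28. The causes of these shifts were not tested. Settings that leave 1 array out also rest on fewer arrays. Over all genes, 1389 were called by the t-test, 1766 without the filter and 2762 with the block, against 2331. Pairing by the block changed the calls of Klf15 among the members, and of Stat5a, Ahsa1, Pomc, Jun, Dusp16, Btg2, Bhlhe41, Srd5a1, Il1b, Lalba and Sgk2 among the other named genes. No array held a saturated spot.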

Other observations

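Clock genes, several of which are glucocorticoid targets and which set the daily rhythm of tissues, gave no call among 13 tested in the unpaired fit. By limma 0 were called, where 16.5% of all genes were called in either direction. An unadjusted p under 0.05 was found for 1 (Bhlhe41), and the methods' t-test called 0. Bhlhe41, a repressor of the clock also known as DEC2, read 6.70, 5.58, 6.20 and 5.59 on the WT arrays and 7.50, 7.11, 7.44 and 6.04 on the KO arrays. It differed by 1.00 (SE 0.37, adjusted p = 0.0911), and with the replicate block it was called (adjusted p = 0.0263), as it was without WT1 or KO4. Arntl, which encodes BMAL1, the activator at the core of the clock, read 10.08, 9.99, 9.75 and 10.29 on the WT arrays and 8.42, 9.31, 9.65 and 10.08 on the KO arrays. Its difference was -0.66 (SE 0.32, adjusted p = 0.169), with KO1 far below the other arrays. The 95% intervals ran from 0.16 to 1.85 for Bhlhe41 and from -1.40 to 0.07 for Arntl. The median difference of the list was 0.23, but -0.02 without KO1, 0.07 without WT3, 0.45 without KO4 and -0.03 with the mean of probes, against -0.02 over all genes tested. The time of day at which the glands were taken is not given in the sources used here.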
